A study of Homo sapiens with 6 samples.

Results

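J-domain proteins are the partners that bring client proteins to HSP70 chaperones and switch on HSP70's ATPase. Class A members carry a J domain, a glycine- and phenylalanine-rich stretch and a zinc-finger region, class B members lack the zinc fingers, and class C members share only the J domain, which can sit anywhere in the protein. Different members serve HSP70s in the cytosol, the endoplasmic reticulum (ER) and mitochondria, and some heat-shock inducible members, such as DNAJB1, are controlled by the transcription factor HSF1.

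The DNAJ genes were taken as all protein-coding rows of the deposited gene table whose symbol starts with DNAJA, DNAJB or DNAJC and a number, which gave 45 of 58735 listed genes: 4 of class A, 12 of class B and 29 of class C. RNA was sequenced from SKM-1 cells, a human myeloid leukaemia line, that had received celastrol, a triterpenoid from the thunder god vine known to induce the heat shock response, or DMSO, the solvent, for 48 h. Each treatment had 3 libraries of the same line, and no dose is stated for celastrol. The labels do not tell whether the 3 libraries are separate cultures, and p-values then cover only library-to-library spread, which may be technical.

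Reads recovered from the deposited FPKM (fragments per length of gene and library total) came to 15231742 to 16231066 in the celastrol libraries, against 13549187 to 15410904 in the DMSO libraries. In the SKM-1 libraries 4 of 8 myeloid markers (CD33, LYZ, PTPRC and SPI1) averaged at least 1 FPKM, and the granule enzyme MPO lay at or near 0. All 6 erythroid markers averaged at least 1 FPKM and summed to between 82.9 and 102 FPKM with celastrol and between 169 and 180 with DMSO. KLF1 and ALAS2 made up most of that difference, and HBG2 overlapped, at 25.8 to 36.1 FPKM with celastrol and 18.4 to 31.0 with DMSO, with the higher mean in celastrol libraries. The myeloid markers summed to between 54.5 and 59.8 FPKM with celastrol and between 67.9 and 74.9 with DMSO. LYZ carried the lower sum, at 16.5 to 18.8 FPKM with celastrol and 36.6 to 39.2 with DMSO, whereas PTPRC was higher in each celastrol library than in any DMSO library, and SPI1 lay at 19.8 to 24.1 with celastrol and 15.0 to 22.1 with DMSO. Of 6 epithelial and stromal markers, EPCAM alone averaged at least 1 FPKM and KRT5 was listed at 0, and their sums were 15.0 to 16.5 FPKM with celastrol and 30.3 to 33.9 with DMSO. The B-cell marker MS4A1 was listed at 0. The part of these marker differences in the DNAJ results was not tested. In bulk RNA, fewer cells of a type and less RNA per cell cannot be told apart.

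Because HSF1 binds repeats of the unit GAA facing TTC, the promoters of the DNAJ genes were searched for heat shock elements, and the sites of 4 genes discussed below are shown here. The windows ran from 250 bases before to 50 after each RefSeq start (GRCh38.p14) and covered 41 of the 45 genes, with 53 starts. The other 4, DNAJC1, DNAJC22, DNAJC24 and DNAJC5B, had no window and were not searched. The search used the 3-unit forms GAANNTTCNNGAA and TTCNNGAANNTTC and the 2-unit forms GAANNTTC and TTCNNGAA, on both strands, so that a 3-unit match also holds 2-unit matches. Capitals mark the matched bases, and each line runs 5′ to 3′ on the strand of the gene. The DNAJA1 line is chr9:33025267-33025296 (plus strand), the DNAJB6 line chr7:157336864-157336893 (plus), the DNAJB1 line chr19:14518427-14518484 (minus) and the DNAJB4 line chr1:78004830-78004859 (plus).
DNAJA1: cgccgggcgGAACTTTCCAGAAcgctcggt
DNAJB6: aagagccgaGAACCTTCGCGAAggtggggc
DNAJB1: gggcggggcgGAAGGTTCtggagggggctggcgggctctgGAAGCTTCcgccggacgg
DNAJB4: agcatttgctgTTCTAGAAagtacagagac

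A 3-unit element was found for 2 of the 41 genes, DNAJA1 (bases 4 to 16 after the start, over its annotated exon) and DNAJB6 (bases -131 to -119), against 0.608% of all 27305 genes with such windows. A 2-unit element was found for 8 of the 41 genes, or 19.5%, against 16.2% of all genes: these were DNAJA1, DNAJA4, DNAJB1, DNAJB4, DNAJB6, DNAJB7, DNAJC6 and DNAJC15. The ER stress element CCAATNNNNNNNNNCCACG was found in none of the 41, against 0.0916% of all genes. The DNAJB1 sites shown lie at bases -77 to -70 and -47 to -40 of 1 of its starts, another of its starts has a 2-unit site at bases 2 to 9, and the DNAJB4 site at bases -98 to -91 of 1 of its starts, over an annotated DNAJB4 exon. A match is a description of the letters and was not tested for binding.

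The comparison of celastrol with DMSO asks which DNAJ transcripts differ between treated and solvent-treated leukaemia cells. Of the 35 DNAJ genes with a mean of at least 1 FPKM, 4 rose and 4 fell with celastrol (limma-trend, Benjamini-Hochberg adjusted p under 0.05 over all 12685 genes tested). The risers were DNAJB4, DNAJC30, DNAJA1 and DNAJC1, and those that fell were DNAJC12, DNAJC6, DNAJA3 and DNAJC7. These 8 made up 22.9% of the tested DNAJ genes, against 29.5% of all tested genes, with 15.3% of all genes higher and 14.2% lower. The median log2 fold change of the 35 was 0.04, beside 0.02 for all tested genes. The values of celastrol and DMSO libraries did not overlap for 18 of the 35 (11 higher, 7 lower), or 51.4%, against 47.3% of all tested genes (25.3% higher and 22.0% lower).

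**Figure D1:**
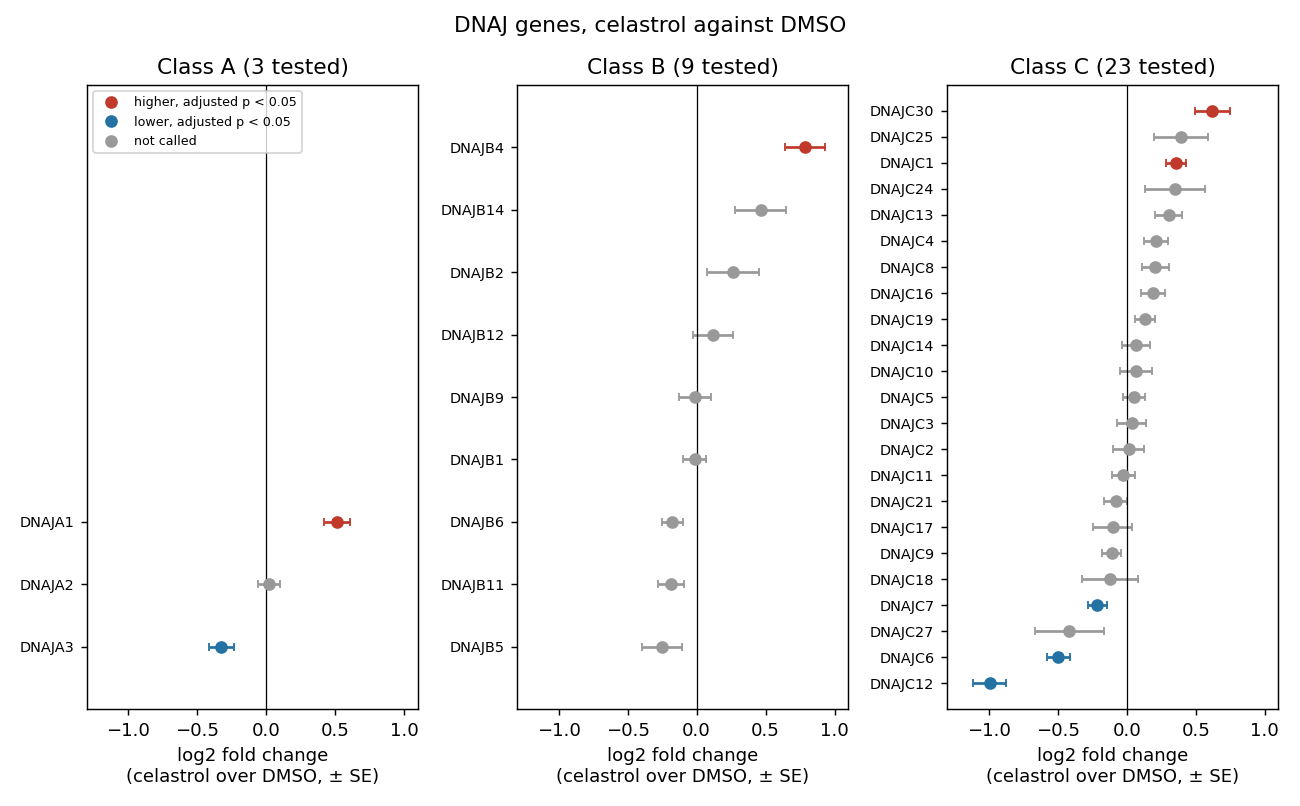
Log2 fold change of celastrol over DMSO with its standard error (x axis) for each of the 35 tested DNAJ genes (y axis), in 3 panels for class A, B and C. Red points were higher and blue points lower at an adjusted p under 0.05, and grey points were not called; the range runs from -0.99 for DNAJC12 to 0.79 for DNAJB4.

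The count of called DNAJ genes depended on how libraries were scaled. Rescaling to TPM moved the median of all tested genes to 0.26 and that of the DNAJ genes to 0.28, and called 17 DNAJ genes higher and 2 lower, while 86.6% of all calls were then higher, against 52.0% as deposited. Under TPM 54.3% of the tested DNAJ genes and 47.9% of all tested genes were called. Scaling to the listed reads moved the medians to 0.12 and 0.13 and called 7 higher and 2 lower, with 70.0% of all calls higher. Under that scaling 25.7% of the tested DNAJ genes and 34.0% of all tested genes were called. Relative to the median of all tested genes, 18 of the 35 DNAJ genes lay above it under each of these 3 scalings. The 4 risers and DNAJC12 and DNAJC6 kept their calls and directions under every alternative in which they were tested, whereas DNAJA3 and DNAJC7 did not.

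**Figure D2:**
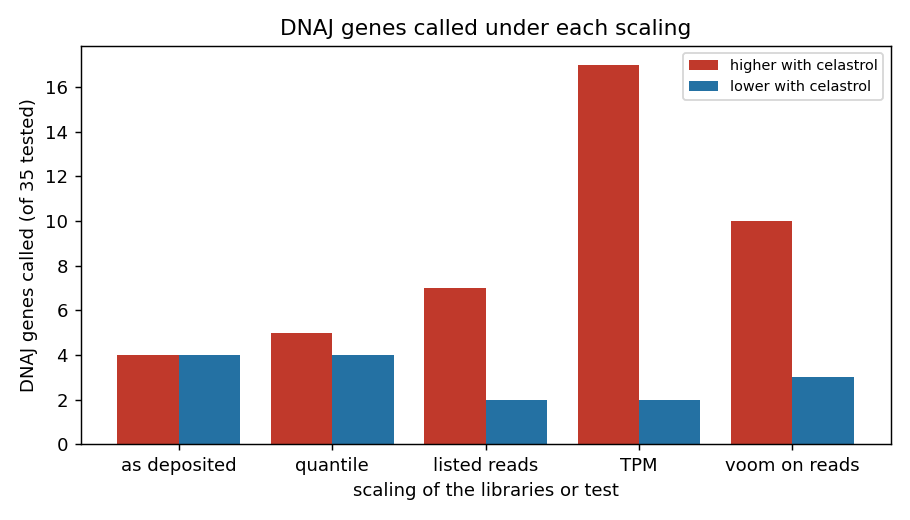
Number of DNAJ genes called higher (red bars) or lower (blue bars) with celastrol, of 35 tested, under the deposited scaling, quantile normalization, scaling to listed reads, TPM and limma-voom on recovered reads (x axis). The deposited values gave 4 higher and 4 lower, and TPM gave 17 higher and 2 lower.

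Class A holds the general HSP70 cochaperones of the cytosol and a mitochondrial member, and its tested genes parted, with DNAJA1 higher, DNAJA3 lower and DNAJA2 not called. DNAJA1, a farnesylated partner of the cytosolic HSP70s HSPA8 and HSPA1A (chromosome 9, 33025211 to 33039907), had 66.2, 71.2 and 80.9 FPKM in celastrol libraries, against 46.9, 52.4 and 53.7 FPKM in DMSO libraries. Every celastrol library lay above every DMSO library, and celastrol replicate 3 was the highest. DNAJA1 rose by a log2 fold change of 0.51 (SE 0.09, adjusted p = 0.00686), or 1.43-fold, and between 0.43 and 0.58 when each library was left out in turn. DNAJA2, the other abundant class A partner of cytosolic HSP70, had 15.1, 14.4 and 16.3 FPKM with celastrol and 14.1, 15.9 and 15.2 FPKM with DMSO. Its groups overlapped, with a log2 fold change of 0.02 (adjusted p = 0.877). Per 100 FPKM of DNAJA2 there were 439, 495 and 497 of DNAJA1 with celastrol, against 333, 331 and 353 with DMSO.

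DNAJA3, also called TID1, serves the mitochondrial HSP70 HSPA9 (chromosome 16, 4425805 to 4456775). It had 15.8, 16.6 and 18.1 FPKM in celastrol libraries, against 23.2, 19.5 and 20.8 FPKM in DMSO libraries. The groups did not overlap, and the log2 fold change was -0.33 (SE 0.09, adjusted p = 0.0294). Leaving out celastrol replicate 1 or 2, or DMSO replicate 1 or 3, ended the call (adjusted p = 0.0956, 0.0950, 0.0575 and 0.0856), and it was also lost under TPM (0.399), with scaling to listed reads (0.0679) and when low genes were kept (0.0707). DNAJA4, the remaining class A gene, was scarcely expressed, at 0.0822 to 0.198 FPKM with celastrol and 0.133 to 0.137 with DMSO, and was not tested. Summed over the class, FPKM came to 97.3, 102 and 115 with celastrol and to 84.3, 87.9 and 89.8 with DMSO. These sums do not overlap, and the two-sided exact permutation p of 0.1 is the smallest that 3 against 3 allows. DNAJA1 weighs most in them, with means of 72.8 FPKM with celastrol and 51.0 with DMSO. Since DNAJA3 was lower and DNAJA2 was not called, the sums do not describe a rise of the whole class.

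**Figure D3:**
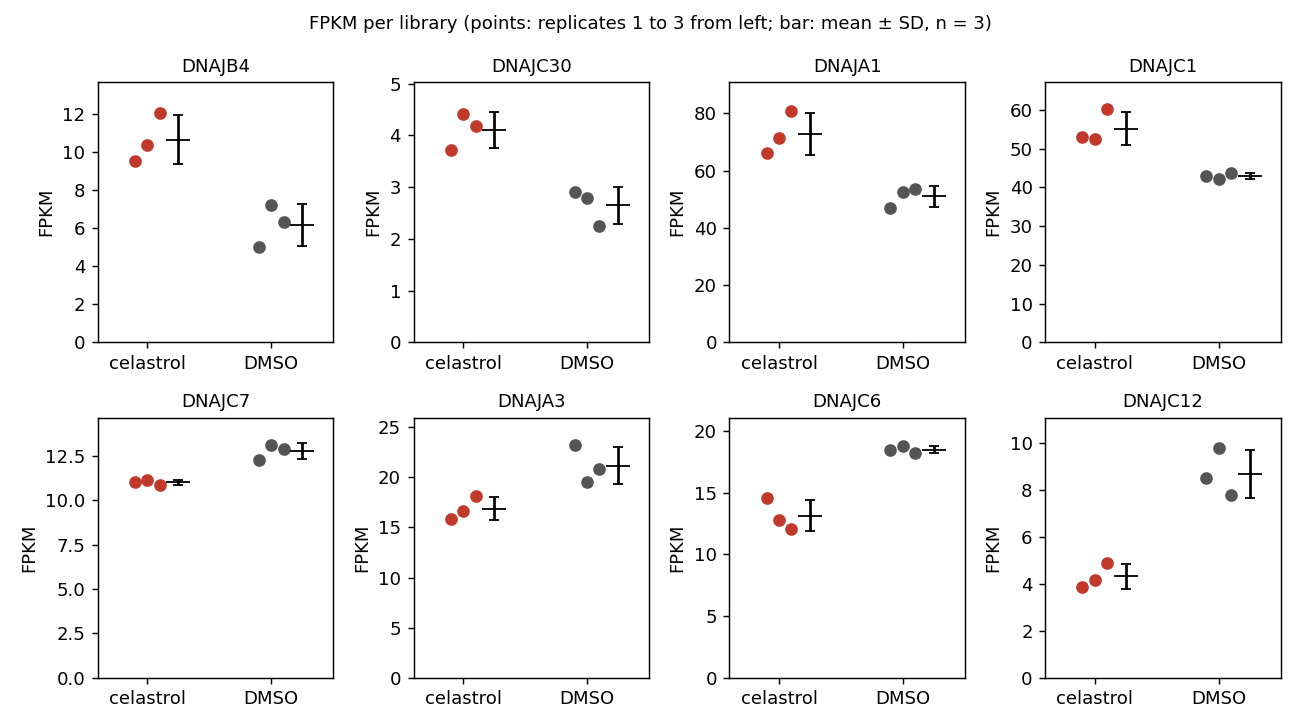
FPKM of the 8 called DNAJ genes in each library (points, replicates 1 to 3 from left to right) with the mean ± SD (black bars, n = 3), celastrol left of DMSO, on linear axes from 0. Groups do not overlap in any panel, and the widest separation in fold is that of DNAJC12, whose means were 4.32 and 8.68 FPKM.

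Of 9 tested class B genes 1 rose and none fell at an adjusted p under 0.05. The called share was 11.1%, against 29.5% of all tested genes (15.3% higher and 14.2% lower). At an unadjusted p under 0.05 there were 2 that lay higher and 1 lower, and the share of all genes at that level was not counted. Limma-voom on the recovered reads called 2 class B genes higher and 0 lower, while it called 40.3% of all tested genes. DNAJB4, also called HLJ1, a cytosolic relative of the heat-shock inducible DNAJB1 (chromosome 1, 77979175 to 78017964), was the riser. It had 9.53, 10.4 and 12.1 FPKM with celastrol, against 5.01, 7.21 and 6.33 FPKM with DMSO. The groups did not overlap, and it rose 1.73-fold (log2 fold change 0.79, SE 0.14, adjusted p = 0.00686). Among the tested DNAJ genes this was the largest increase, and leaving out each library gave 0.65 to 0.90.

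DNAJB1, or HSP40, is the best known inducible member and the most abundant of class B. It had 47.5, 46.6 and 48.0 FPKM in celastrol libraries and 48.6, 43.2 and 52.3 FPKM in DMSO libraries. Its promoter stretch shown above holds 2-unit elements. The celastrol values lie inside the DMSO range, at a log2 fold change of -0.01 (SE 0.08, adjusted p = 0.905) that became 0.23 under TPM (adjusted p = 0.0383). DNAJB4 amounted to 20.1, 22.3 and 25.2 FPKM per 100 FPKM of DNAJB1 with celastrol, against 10.3, 16.7 and 12.1 with DMSO. This ratio within a library does not depend on the scaling and did not overlap between the treatments. DNAJB6, which keeps polyglutamine proteins from aggregating and has a 3-unit element, had 9.29, 10.2 and 10.3 FPKM with celastrol and 11.0, 10.9 and 11.8 FPKM with DMSO. Its groups did not overlap, yet it was not called (log2 fold change -0.18, adjusted p = 0.118).

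The other cytosolic class B genes were DNAJB2, which binds ubiquitin chains, at 0.26 (adjusted p = 0.330) and DNAJB5 at -0.25 (0.226) on the log2 scale. Neither was called. The other 3 class B genes had few reads or none: DNAJB13, a radial spoke protein of sperm tails, at 0.156 to 0.328 FPKM with celastrol and 0.171 to 0.426 with DMSO, DNAJB7 with 0 to 3 reads per celastrol library and 2 to 4 per DMSO library, and DNAJB8, known from testis, with no reads. For DNAJB8, a count of 0 allows up to 0.0611 FPKM in a library. Class B sums overlapped, at 110, 115 and 123 FPKM with celastrol and 112, 107 and 120 FPKM with DMSO (two-sided exact permutation p = 0.6, n = 3 each).

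J-domain proteins of the ER assist the HSP70 HSPA5, also called BiP, in translocation, folding and disposal of secretory proteins. Of 10 tested ER genes, from classes B and C, 1 rose and none fell, against 15.3% higher and 14.2% lower of all tested genes, and the median log2 fold change was 0.09. DNAJC1, an ER membrane protein that binds ribosomes (chromosome 10, 21756537 to 22003769), had 53.0, 52.4 and 60.1 FPKM with celastrol, against 42.9, 42.1 and 43.7 FPKM with DMSO. All celastrol libraries lay above all DMSO libraries, and it rose 1.29-fold (log2 fold change 0.36, SE 0.07, adjusted p = 0.0108). DNAJC1 is among the most abundant DNAJ mRNAs of these cells, the third after DNAJC8 and DNAJA1 by mean FPKM.

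The ER members known as targets of the unfolded protein response, DNAJB9, DNAJC3, DNAJB11 and DNAJC10, were not called. DNAJB9, a brake on the stress sensor IRE1, had 13.2, 15.5 and 17.4 FPKM with celastrol and 13.8, 16.4 and 16.2 FPKM with DMSO, at a log2 fold change of -0.01 (adjusted p = 0.945). DNAJC3, an inhibitor of the eIF2α kinase PERK, had 10.4, 11.0 and 9.73 FPKM with celastrol and 8.70, 11.1 and 10.7 FPKM with DMSO, at 0.04 (adjusted p = 0.829). The groups overlapped for both genes. DNAJB11, a folding cochaperone, lay at -0.18 (0.186) and DNAJC10, a disulfide reductase of ER-associated degradation, at 0.07 (0.681). The ER membrane members were DNAJB14 at 0.46 (0.0961), DNAJB12 at 0.12 (0.570), DNAJC16 at 0.19 (0.145), DNAJC18 at -0.12 (0.690) and DNAJC25, placed here by the list used, at 0.39 (0.169). DNAJB14 had 3.24, 3.47 and 3.80 FPKM with celastrol and 1.87, 3.17 and 2.64 with DMSO. Its groups did not overlap, and it passed without DMSO replicate 2 (adjusted p = 0.0332), under TPM (0.0204) and with limma-voom (0.00463).

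Of 5 tested mitochondrial genes, from classes A and C, DNAJC30 rose and DNAJA3 fell. The called share was 40.0%, against 29.5% of all tested genes (15.3% higher and 14.2% lower). DNAJC30, an inner-membrane protein from the Williams syndrome region that acts in repair of complex I (chromosome 7, 73680969 to 73683453), had 3.72, 4.41 and 4.19 FPKM with celastrol, against 2.91, 2.78 and 2.25 FPKM with DMSO. The groups did not overlap, and it rose 1.55-fold (log2 fold change 0.62, SE 0.13, adjusted p = 0.0103). DNAJC30 shares 429 bases with BUD23 on the opposite strand, which averaged 15.6 FPKM, and reads of overlapping genes may not be told apart where strand was not kept. DNAJC19, a member of the import motor, lay at 0.13 (adjusted p = 0.201), DNAJC11, linked to cristae structure, at -0.02 (0.855), and DNAJC4 at 0.21 (0.101) on the log2 scale. DNAJC4 passed without DMSO replicate 1 (0.0245) and under TPM (0.00279), scaling to listed reads (0.0200) and limma-voom (0.0115). DNAJC15, the import motor paralogue of DNAJC19 that is methylated and silent in many tumours, had 0 to 6 reads per celastrol library and 0 to 2 per DMSO library. DNAJC28 had 0.663, 0.970 and 1.01 FPKM with celastrol and 0.336, 0.478 and 0.487 FPKM with DMSO, from 26, 40 and 42 reads and 12, 16 and 18 reads. Its groups did not overlap but its mean of 0.657 FPKM kept it out of the test, and when low genes were kept in the fit its adjusted p was 0.138.

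The largest decrease among the tested DNAJ genes was that of DNAJC12, a cochaperone of the phenylalanine, tyrosine and tryptophan hydroxylases (chromosome 10, 67796665 to 67838166). It had 3.88, 4.17 and 4.91 FPKM in celastrol libraries, against 8.51, 9.77 and 7.77 FPKM in DMSO libraries, from 130, 147 and 175 reads and from 260, 279 and 245 reads. The highest celastrol library lay well below the lowest DMSO library. DNAJC12 was 2.01-fold lower (log2 fold change -0.99, SE 0.12, adjusted p = 0.00127), and leaving out each library gave -1.08 to -0.90.

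DNAJC6, or auxilin, recruits HSC70 to strip clathrin from coated vesicles and is best known from neurons (chromosome 1, 65248219 to 65415869). It had 14.5, 12.8 and 12.1 FPKM with celastrol, against 18.5, 18.8 and 18.2 FPKM with DMSO. The DMSO libraries lay close together and above all celastrol libraries, and DNAJC6 was 1.41-fold lower (log2 fold change -0.49, SE 0.08, adjusted p = 0.00496). GAK, the auxilin that most tissues use, is a J-domain gene without a DNAJ symbol, and its groups overlapped at a log2 fold change of -0.01 (adjusted p = 0.949). There were 151, 133 and 125 FPKM of DNAJC6 per 100 FPKM of GAK with celastrol, against 168, 212 and 194 with DMSO. The other vesicle members were DNAJC5, DNAJC13 and DNAJC14. DNAJC5, the cysteine string protein of secretory vesicles, had 34.2, 32.8 and 31.0 FPKM with celastrol and 33.5, 28.9 and 32.3 FPKM with DMSO. DNAJC14, placed here and not with the ER genes by the list used, acts in export of receptors to the cell surface. DNAJC5 overlapped between groups at 0.05 (adjusted p = 0.655), and so did DNAJC14 at 0.07 (0.635). DNAJC13, which acts on endosomes, had 4.72, 4.78 and 5.07 FPKM with celastrol and 3.50, 4.27 and 4.01 FPKM with DMSO. It did not overlap and missed the threshold at 0.31 (adjusted p = 0.0502), which it passed under TPM (0.00498), listed reads (0.0212), limma-voom (0.00355), quantile normalization (0.0468) and without DMSO replicate 2 (0.0331).

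DNAJC7, or TPR2, binds both HSP70 and HSP90 through its tetratricopeptide repeats (chromosome 17, 41976433 to 42021376). It had 11.0, 11.1 and 10.9 FPKM with celastrol, against 12.3, 13.1 and 12.9 FPKM with DMSO. The groups were tight and did not overlap, and the log2 fold change of -0.21 just passed (SE 0.07, adjusted p = 0.0453). The call was lost without each library except DMSO replicate 1 (adjusted p up to 0.153), when low genes were kept (0.0592), with listed reads (0.228) and with limma-voom (0.252), and TPM turned the value to 0.028. DNAJC7 also shares 9995 bases with NKIRAS2 on the opposite strand, which averaged 18.9 FPKM. In total 13 DNAJ genes overlap a gene on the opposite strand that averaged at least 1 FPKM. The span of DNAJB1 shares 12686 bases with TECR (28.6 FPKM) on the opposite strand. DNAJA3 shares 479 bases with AC012676.3 (4.71 FPKM) on its own strand. The part of such overlaps in the values was not tested.

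Class C members of the nucleus and ribosome were not called. DNAJC8, a spliceosome protein and the most abundant DNAJ mRNA, had 74.5, 77.5 and 93.2 FPKM with celastrol and 67.7, 74.1 and 69.6 FPKM with DMSO. The groups did not overlap, with celastrol replicate 3 well above the rest, and the log2 fold change was 0.21 (adjusted p = 0.140), which passed under TPM (0.00570), scaling to listed reads (0.0430) and limma-voom (0.0122). DNAJC9, a histone H3-H4 chaperone, was at -0.11 (0.271), DNAJC2, of the ribosome-associated complex, at 0.01 (0.935), DNAJC21, of 60S ribosome assembly, at -0.08 (0.494) and DNAJC17, of splicing, at -0.10 (0.628). DNAJC24, of diphthamide synthesis, lay at 0.35 (0.262) and DNAJC27, a GTPase-like member, at -0.42 (0.244), with means of 1.17 and 1.12 FPKM over all libraries, the lowest of the tested genes. DNAJC22 lay at 0.0472 to 0.151 FPKM with celastrol and 0.0145 to 0.0922 with DMSO, and DNAJC5B, DNAJC5G and the read-through DNAJC25-GNG10 had no reads. A count of 0 allows up to 0.0759, 0.0948 and 0.154 FPKM for those genes in a library, and the read-through covers DNAJC25, so reads of these genes may not be told apart. The class as a whole had 2 members that rose and 3 that fell of 23 tested, or 21.7% called, against 29.5% of all tested genes. Among those 23 the groups did not overlap for 8 that lay higher and 4 that lay lower. That is 52.2%, against 47.3% of all tested genes (25.3% higher and 22.0% lower). Class C sums were 326, 329 and 351 FPKM with celastrol and 313, 320 and 317 FPKM with DMSO. They do not overlap, and the two-sided exact permutation p was 0.1 (n = 3 each).

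**Figure D4:**
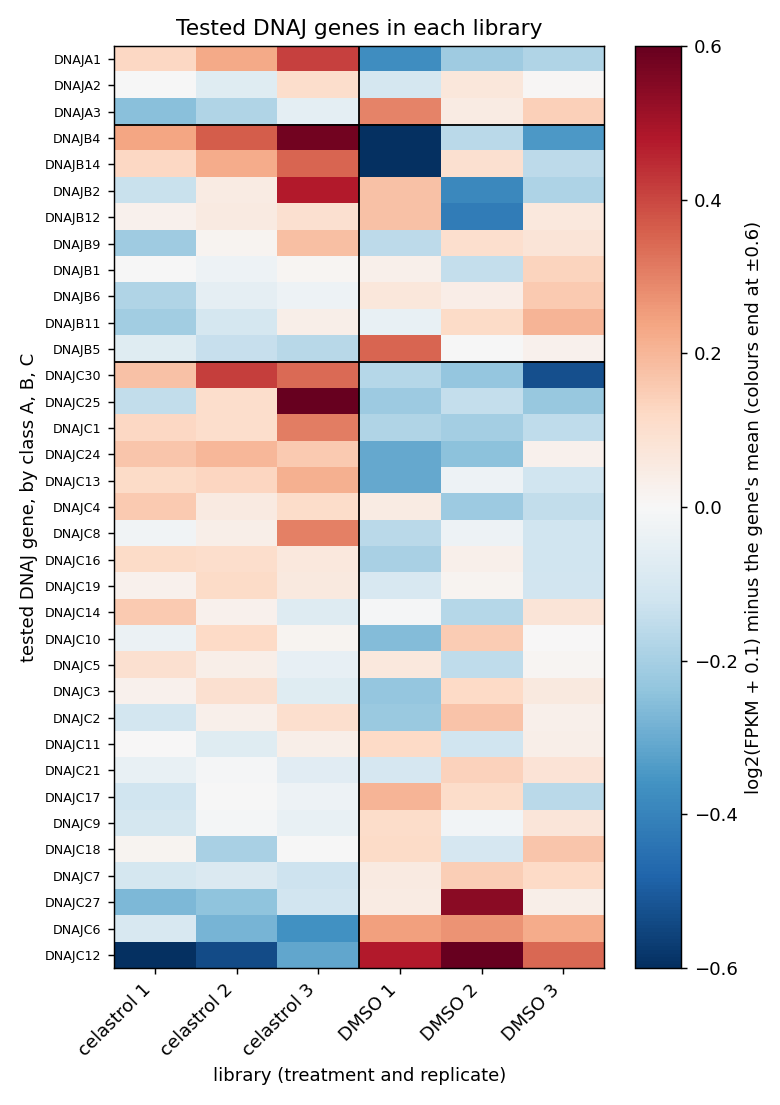
Log2(FPKM + 0.1) of the 35 tested DNAJ genes minus each gene's mean (colour, ending at 0.6 on either side), with libraries along the x axis (celastrol replicates 1 to 3, then DMSO replicates 1 to 3) and genes down the y axis, by class and from the highest fold change to the lowest. Celastrol replicate 3 was the highest celastrol library for 19 of the 35 genes, among them DNAJA1, DNAJB4 and DNAJC1.

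Celastrol replicate 3 was the highest of its group for 54.3% of tested DNAJ genes and for 38.9% of all tested genes. Without it DNAJA1 lay at 0.43, DNAJB4 at 0.69 and DNAJC1 at 0.30 on the log2 scale, and each kept its call.

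Among the HSP70 genes that DNAJ proteins serve, 5 of 14 tested rows of the HSP70 and HSP110 list rose and 4 fell. Calls thus covered 64.3% of these rows, against 29.5% of all tested genes (15.3% higher and 14.2% lower). The list as a whole was not tested. The 5 rows not called were HSPA4, HSPA4L, HSPA13 (log2 fold change -0.01, adjusted p = 0.943) and those of HSPA14. The most abundant constitutive HSP70 of each compartment was lower. Cytosolic HSPA8 had 310, 294 and 308 FPKM with celastrol, against 384, 479 and 447 FPKM with DMSO (log2 fold change -0.52, adjusted p = 0.00565). HSPA5 of the ER had 101, 102 and 113 FPKM with celastrol, against 185, 172 and 182 FPKM with DMSO (-0.77, adjusted p = 0.000479), and its exchange factor HYOU1 was at -0.58 (adjusted p = 0.00329). Mitochondrial HSPA9 had 56.9, 56.7 and 59.6 FPKM with celastrol, against 86.1, 86.9 and 90.6 FPKM with DMSO (-0.60, adjusted p = 0.000662). In all 3 genes the highest celastrol library lay below the lowest DMSO library. The inducible genes HSPA6, HSPA1A and HSPA1B rose, and so did HSPA1L and the HSP110 gene HSPH1. HSPH1 had 17.9, 19.1 and 19.8 FPKM with celastrol, against 10.3, 12.2 and 12.1 FPKM with DMSO (0.71, adjusted p = 0.00148). HSPA1A and HSPA1B are nearly identical copies whose reads can be divided between them.

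The mRNA of several DNAJ genes was also set against that of the HSP70 of its compartment. Ratios within a library do not depend on the library total, and the pairs were chosen after their values were seen. Per 100 FPKM of HSPA8 there were 21.4, 24.2 and 26.2 FPKM of DNAJA1 with celastrol, against 12.2, 10.9 and 12.0 with DMSO. For DNAJB1, which was not called itself, the ratio to HSPA8 was 15.3, 15.8 and 15.6 with celastrol, against 12.7, 9.02 and 11.7 with DMSO. For both ratios every celastrol library lay above every DMSO library. In the ER, there were 52.6, 51.4 and 53.1 FPKM of DNAJC1 per 100 FPKM of HSPA5 with celastrol, against 23.2, 24.4 and 24.0 with DMSO. For DNAJB9 the ratio to HSPA5 was 13.1, 15.2 and 15.3 with celastrol and 7.44, 9.53 and 8.87 with DMSO, while DNAJB9 itself averaged 15.4 FPKM with celastrol and 15.5 with DMSO. For DNAJA3 there were 27.9, 29.3 and 30.4 per 100 FPKM of HSPA9 with celastrol and 27.0, 22.5 and 23.0 with DMSO. These are 5 of 13 ratios computed, and they are descriptions with no test: HSPA8, HSPA5 and HSPA9 were themselves lower with celastrol, which raises any ratio to them, also that of a gene that did not differ.

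**Figure D5:**
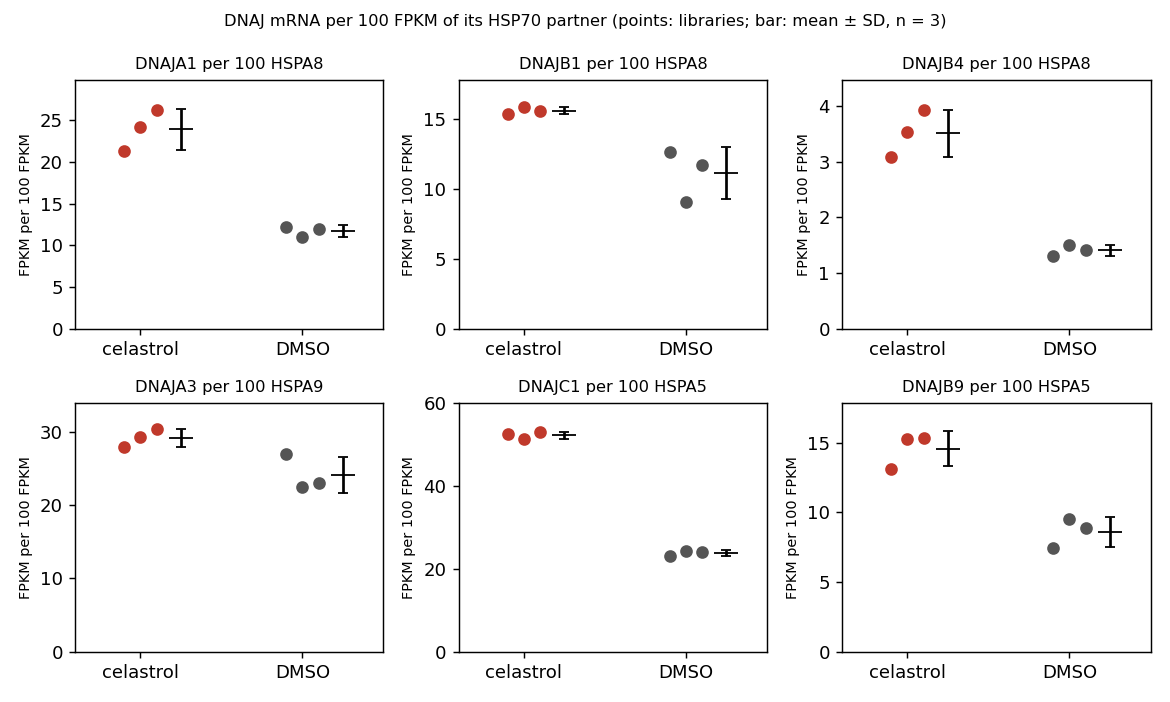
FPKM of 6 DNAJ genes per 100 FPKM of the HSP70 gene of their compartment, in each library (points) with the mean ± SD (black bars, n = 3), celastrol left of DMSO, on linear axes from 0. Groups do not overlap in any panel, and DNAJC1 per 100 HSPA5 averaged 52.4 with celastrol and 23.9 with DMSO.

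Of 9 further nucleotide exchange factors, the BAG, HSPBP1, SIL1 and GRPEL genes, which reset HSP70 after the J-domain step, 4 rose and 1 fell. The called share was 55.6%, against 29.5% of all tested genes (15.3% higher and 14.2% lower), and this small list was not tested as a whole. HYOU1 and HSPH1 also act as exchange factors and are counted with the HSP70 and HSP110 list above. BAG3, an HSF1-controlled factor that links HSP70 to autophagy, had 23.1, 22.6 and 23.3 FPKM with celastrol, against 18.3, 15.1 and 16.6 FPKM with DMSO (log2 fold change 0.47, adjusted p = 0.00617). BAG5, GRPEL1 and BAG2 rose by 0.31, 0.39 and 0.32 on the log2 scale (adjusted p = 0.0249, 0.0257 and 0.0487). The mitochondrial pair of exchange factors for HSPA9 parted, since GRPEL2 fell by 0.67 on the log2 scale (adjusted p = 0.00531). Of the J-domain genes that carry other symbols, SEC63 of the ER translocon was at -0.10 (adjusted p = 0.433) and HSCB, of iron-sulphur cluster transfer, at 0.19 (0.225), and neither was called, nor was GAK.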

How the data were processed

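RNA from SKM-1 cells was sequenced in 6 libraries, grouped by their titles (celastrol, 3; DMSO, 3); the protocol text names celastrol for all 6. The deposited unit is FPKM, made by the authors per the file headers, with gene length in bases listed beside it. The tools named in the submitters' processing notes are HISAT2 2.0.5 and featureCounts 1.5.0-p3, and the build GRCh38; settings and strand handling are not stated. FPKM times length was a whole multiple of 1 step in 100% of non-zero values, to within 0.001 of 1 read, which gave the reads back. The authors' total was 1.04 to 1.05 times the listed reads with celastrol and 0.963 to 0.994 times with DMSO, and scaling by listed reads therefore gives higher celastrol values than the deposited scaling.

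Tests used limma 3.58.1 (R 4.3.3): log2(FPKM + 0.1), which understates folds of low genes, mean FPKM of at least 1, limma-trend, treatment as the single term, two-sided, Benjamini-Hochberg adjustment over all tested genes, threshold 0.05. The code was tested on simulated counts. Means with SD, folds and ratios are of FPKM. No library repeated another: chi-square per gene was 4.01 to 13.4 within treatments. Every DNAJ gene is named; called genes and the 2 highest of each class are given by library. Promoters are RefSeq's; protein sequences were not used here. Some results on marker and partner genes are not reported here. The members and lists were chosen with earlier results of these data known. HSPA14 is listed under several identifiers, so the HSP70 list holds 17 rows for 16 symbols. A total of 25 other rows with DNAJ symbols (pseudogenes, antisense and long noncoding) were left out; DNAJC8P1 reached 3.36 FPKM, and such copies can share reads. Intervals and limits of 0 cover counting error only (3 reads).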

Additional observations from a re-analysis of the deposited data

How the results depend on the processing

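The alternatives were pseudocounts of 1 and 0.01, no filter or a mean of at least 5 FPKM, TPM, listed reads, quantile normalization, limma-voom, each library left out and a replicate block. TPM called 17 DNAJ genes higher (2 class A, 4 class B, 11 class C) and 2 lower (0 of class A), with 5266 genes higher and 813 lower of all tested. Scaling to listed reads called 7 higher (5 class C) and 2 lower (0 of class A), with 3024 higher of all genes. Limma-voom called 10 higher (2 class B, 7 class C), with 3650 higher of all. No filter called 2 DNAJ genes lower (0 of class A), and a mean of at least 5 FPKM 1 class C gene higher. With no filter 14.6% of the DNAJ genes in the fit were called, against 8.33% of all genes. With a mean of at least 5 FPKM these shares were 29.2% and 38.3%. Under TPM, DNAJB1 turned to 0.23, DNAJC11 to 0.22 and DNAJC7 to 0.028. Without 1 library, 4 to 6 DNAJ genes were higher and 2 to 3 lower, with ranges of 0 to 1 for class A lower, 1 to 2 for class B higher, 1119 to 1948 for all genes higher and 1003 to 1766 for all lower. Replicate numbers did not pair the libraries (correlations of deviations -0.0156, -0.0326 and 0.0339, and not every library correlated best with its own number). The block called 4 DNAJ genes higher and 2 lower (0 of class A), with DNAJA3 at an adjusted p of 0.0515 and DNAJC7 at 0.0877. With the block 17.1% of the tested DNAJ genes were called, against 26.7% of all tested genes. The cause of these shifts was not tested beyond the median shifts given above.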
